A study of Homo sapiens with 9 samples.

Results

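The genes described here are IRAK2, a kinase of interleukin-1 and Toll-like receptor signalling, and the components that work directly around it in that pathway. They were taken from a list of 10 gene symbols, each read from the probe set that carried that symbol alone and had the highest mean over the 9 arrays. The list held IRAK1, IRAK2, IRAK4, MYD88, TRAF6, IL1R1, IL1RAP, TOLLIP, TAB2 and MAP3K7. Of these, 9 were measured, by 1 probe set each, among 14232 genes measured in all, and IRAK4 had no probe set in the annotation used here. IRAK2 was chosen by its low log2 values with miR-520f relative to both controls, so its differences are given below as a description without a test. The other 8 measured genes were listed for their place in the pathway, although results of these arrays were already known.

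The cells were PANC-1, an established human line from a pancreatic carcinoma, and RNA was taken 72 h after transfection. One group received 20 nM of a miR-520f mimic, a synthetic RNA that the cell uses as it would the natural microRNA. The second group received 20 nM of a negative control mimic, and the third, called non-transfected in the labels, received the Lipofectamine RNAiMAX reagent alone. Each group held 3 biological replicates, and all 9 arrays came from this 1 line. The protocols in the labels name no added interleukin-1 or Toll ligand. The values are log2 intensities after the authors' RMA normalization, so a difference of 1 is a change of 2-fold. Differences at the dim end of this scale are compressed, and with 3 arrays in a group the number of arrays limits the precision.

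Interleukin-1 binds the receptor IL1R1, which then pairs with its accessory chain IL1RAP, and Toll-like receptors form similar pairs. The paired receptors hold the adaptor MYD88, which stacks with IRAK4, IRAK1 and IRAK2 through death domains. IRAK1 and IRAK2 pass the signal to the ubiquitin ligase TRAF6, whose ubiquitin chains are bound by TAB2. TAB2 carries the kinase MAP3K7, also called TAK1, which switches on the IkappaB kinases and the stress kinases p38 and JNK. TOLLIP binds receptors and IRAK1 and is known as a brake on the pathway.

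The sequences of the microRNA and of its relatives are shown because, by the labels, the miR-520f and negative control groups differ in the mimic given. A microRNA recognises its targets mainly through its seed, bases 2 to 8, printed in capitals. The labels do not say which arm of the hairpin the mimic copies, so both are given, with microRNAs of related seed for comparison. The sequences are from RefSeq, build GRCh38.p14.
hsa-miR-520f-3p: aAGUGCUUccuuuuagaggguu
hsa-miR-520f-5p: cCUCUAAAgggaagcgcuuucu
hsa-miR-520c-3p: aAAGUGCUuccuuuuagagggu
hsa-miR-373-3p: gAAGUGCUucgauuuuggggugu
hsa-miR-302a-3p: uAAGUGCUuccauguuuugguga
Without its first base, miR-520c-3p matched miR-520f-3p over 21 of the 22 bases of miR-520f-3p, so that the seeds of these microRNAs are the same letters read 1 base apart. The seed AGUGCUU was found in 1 of 2370 mature human microRNAs of the RefSeq table, miR-520f-3p itself. The shifted seed AAGUGCU was found in 12, which are the miR-302, miR-372, miR-373 and miR-520a to miR-520e members. The untranslated regions of the pathway genes were not analysed here.

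After RMA, which equalises arrays, the array medians were 4.22 to 4.34. They were 4.22 to 4.29 with miR-520f, 4.27 to 4.33 with the negative control and 4.31 to 4.34 with reagent alone. The root mean square deviation from the group mean was 0.0698 to 0.169, the last on replicate 1 of the negative control. Array quality before RMA was not examined. Of 7 markers fixed for the line, KRT8, KRT18 and VIM had group means of 8.74 to 12.12, and KRT7 stayed between 3.46 and 3.50. Several were called with miR-520f against both the negative control and reagent alone by limma. These were EPCAM with log2 fold changes of 1.68 and 1.57, CDH1 with 1.15 and 1.07, KRT19 with -0.68 and -0.75 and VIM with -0.24 and -0.23. Thus 2 of the 7 rose and 2 fell against both controls, where 9.37% of all genes rose and 8.61% fell. KRT18 was called higher than with reagent alone only (0.41). The part of these changes in the results below was not tested. The mean over the 7 markers, which combines changes in opposite directions, was 8.56 to 8.60 on miR-520f arrays, 8.22 to 8.29 on negative control arrays and 8.27 to 8.35 on reagent-alone arrays. The mean over 5 immune markers, PTPRC, CD14, CSF1R, LYZ and CD3E, lay between 3.24 and 3.37, between 3.31 and 3.42 and between 3.23 and 3.45 in the same groups. By limma 0 of these 5 were called in any comparison, also at an unadjusted p under 0.05. Of all genes, limma called 12.6% lower and 15.4% higher than with the negative control, and 13.1% and 14.5% than with reagent alone. Between the controls it called 15.3%. The balance of higher and lower calls depended on the scaling. With arrays centred on their median, limma called 2394 genes higher and 1520 lower than with the negative control (2196 and 1800 in the main fit). Against reagent alone it then called 2372 higher and 1475 lower (2061 and 1866 in the main fit). These are bulk samples, in which fewer cells of a kind and less RNA per cell cannot be told apart.

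IRAK2 stood far below both controls on all miR-520f arrays. Its log2 values were 4.16, 4.29 and 4.17 with miR-520f, against 7.16, 6.92 and 6.82 with the negative control and 6.68, 6.26 and 6.22 with reagent alone. The lowest control array was 1.93 above the highest miR-520f array. The group means were 4.21 ± 0.07 with miR-520f, 6.97 ± 0.17 with the negative control and 6.39 ± 0.26 with reagent alone (SD, n = 3 each). IRAK2 was therefore 6.76-fold lower with miR-520f than with the negative control (log2 fold change -2.76, SE 0.13) and 4.52-fold lower than with reagent alone (-2.18, SE 0.13). In the order of all 14232 log2 fold changes from the lowest up, these were ranks 2 and 12. The miR-520f values of IRAK2 lay near the array medians of 4.22 to 4.34. Whether compression toward the dim end affects these folds was not tested. The levels ran from negative control through reagent alone to miR-520f, and the 3 groups did not overlap. The negative control was 0.58 above reagent alone, which is 1.5-fold, so the size of the IRAK2 difference depended on the control it was set against.

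**Figure D1:**
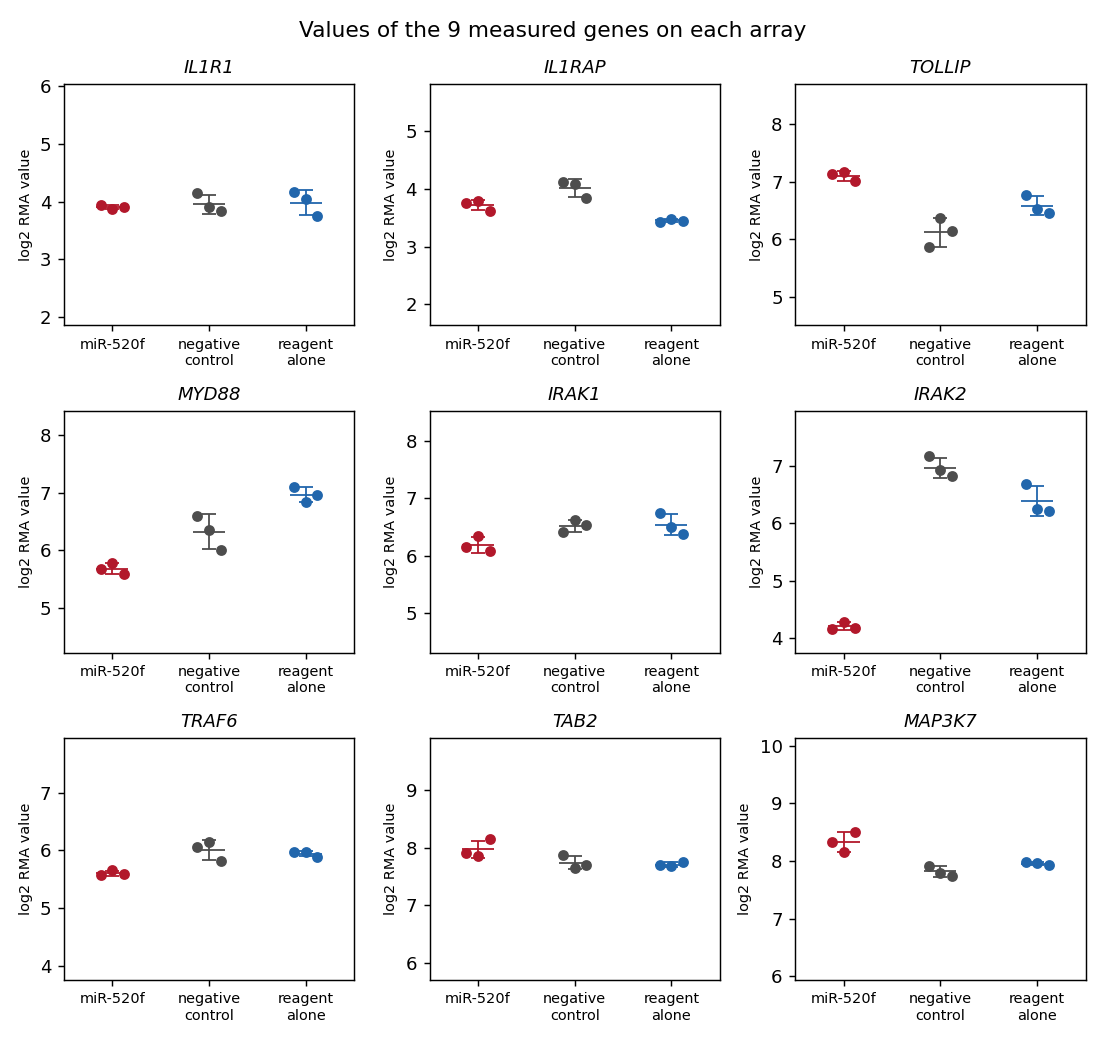
Log2 RMA values of the 9 measured genes on each array, with miR-520f, negative control and reagent-alone arrays from left to right, points for the 3 replicates, and bars for the mean and SD. Every panel spans the same number of log2 units, so the gap of 1.93 between the IRAK2 groups can be compared with the shifts of the other genes.

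The other 8 measured genes did not move together. Against both controls, 3 of them fell with miR-520f (MYD88, TRAF6 and IRAK1) and 2 rose (TOLLIP and MAP3K7), where 8.61% of all genes were called lower and 9.37% higher in both comparisons. IL1RAP was called with opposite signs against the controls, and IL1R1 and TAB2 were not called. A call here is a limma adjusted p under 0.05 over all 14232 genes. In the separate comparisons, 4 of the 8 were lower and 2 higher than with the negative control (12.6% and 15.4% of all genes), and 3 were lower and 3 higher than with reagent alone (13.1% and 14.5%). The median log2 fold change of the 8 was -0.17 against the negative control and 0.09 against reagent alone, and over all genes it was -0.03 in each. The comparisons share the miR-520f arrays and are not independent of each other.

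At the receptor, IL1R1 showed no detectable difference and IL1RAP differed mainly between the controls. IL1R1, the signalling receptor of interleukin-1, measured 3.94, 3.86 and 3.90 with miR-520f, 4.14, 3.90 and 3.83 with the negative control and 4.16, 4.04 and 3.75 with reagent alone. The 3 groups overlapped, and the 95% intervals of the log2 differences ran from -0.30 to 0.19 against the negative control and from -0.33 to 0.17 against reagent alone, so that changes within these bounds remain possible. IL1RAP, the accessory chain that several receptors of the interleukin-1 family share, measured 3.75, 3.79 and 3.62 with miR-520f, 4.12, 4.08 and 3.84 with the negative control and 3.42, 3.49 and 3.45 with reagent alone. The miR-520f arrays lay between the control groups, without overlap with either. IL1RAP was lower than with the negative control by a log2 fold change of -0.29 (SE 0.09, limma adjusted p = 0.0289) and higher than with reagent alone by 0.27 (SE 0.09, limma adjusted p = 0.0391). Both calls lay near the threshold and were lost in the unmoderated model (adjusted p = 0.0623 and 0.0755) and without single arrays. The log2 fold changes stayed between -0.38 and -0.24 and between 0.24 and 0.34 over the 17 alternatives, several of which cannot change them. The first call was lost without replicate 1 or 3 of miR-520f or replicate 1 or 2 of the negative control (adjusted p = 0.0666, 0.110, 0.0820 and 0.10). The second was lost without replicate 1 or 2 of miR-520f or without any single reagent-alone replicate, with adjusted p between 0.0795 and 0.131. Both receptor genes lay at dim values, where this scale compresses differences.

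TOLLIP, the receptor-proximal brake, rose. It measured 7.13, 7.17 and 7.01 with miR-520f, against 5.86, 6.36 and 6.15 with the negative control and 6.77, 6.54 and 6.47 with reagent alone. The miR-520f arrays lay above all 6 control arrays, a placing shared by 13.2% of all genes, with a gap of 0.25. The log2 fold change was 0.98 against the negative control (SE 0.12, limma adjusted p = 0.000133), which is 1.97-fold, and 0.51 against reagent alone (SE 0.12, limma adjusted p = 0.00878), which is 1.43-fold. The second call was lost in an unmoderated linear model (adjusted p = 0.0540).

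MYD88, the adaptor on which the receptors converge, fell in a stepwise order over the groups. It measured 5.68, 5.78 and 5.60 with miR-520f, against 6.61, 6.36 and 6.0 with the negative control and 7.11, 6.84 and 6.95 with reagent alone. No groups overlapped, and the order from high to low was reagent alone, negative control and miR-520f. Against reagent alone, MYD88 was 2.44-fold lower with miR-520f (log2 fold change -1.28, SE 0.13, limma adjusted p = 3.68e-05). Against the negative control it was 1.56-fold lower (-0.64, SE 0.13, limma adjusted p = 0.00399). The negative control mimic itself stood below reagent alone by a similar amount (-0.65, SE 0.13, limma adjusted p = 0.00795), so part of the difference from reagent alone was also present with a mimic of control sequence.

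Of the kinases that assemble on MYD88, IRAK1 fell far less than IRAK2. IRAK1, the first kinase described in this family, measured 6.15, 6.34 and 6.08 with miR-520f, against 6.42, 6.62 and 6.53 with the negative control and 6.74, 6.51 and 6.38 with reagent alone. The highest miR-520f array was below the lowest control array by 0.04. Its log2 fold changes were -0.33 against the negative control and -0.35 against reagent alone (SE 0.11 each, limma adjusted p = 0.0372 and 0.0286). These calls were lost under 7 and 6 of the 17 alternative settings. They were lost without replicate 1 or 3 of miR-520f or replicate 2 of reagent alone in both comparisons, without replicate 2 or 3 of the negative control in the first and without replicate 1 of reagent alone in the second, with adjusted p from 0.0541 to 0.136. IRAK1 did not differ detectably between the control groups (log2 fold change -0.02, 95% interval -0.25 to 0.21).

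TRAF6, the ubiquitin ligase below the IRAK kinases, fell by a similar small amount. It measured 5.57, 5.65 and 5.59 with miR-520f, against 6.05, 6.15 and 5.82 with the negative control and 5.97, 5.98 and 5.89 with reagent alone. The miR-520f arrays were below all 6 control arrays with a gap of 0.17, as were those of IRAK1 and MYD88 by their own gaps and those of 12.1% of all genes. The log2 fold changes were -0.40 against the negative control (SE 0.09, limma adjusted p = 0.00481) and -0.34 against reagent alone (SE 0.09, limma adjusted p = 0.0130). The second call was lost without replicate 1 of miR-520f (adjusted p = 0.0541) or replicate 2 of reagent alone (adjusted p = 0.0518).

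MAP3K7, the kinase that TRAF6 chains activate, rose. It measured 8.34, 8.16 and 8.51 with miR-520f, against 7.92, 7.80 and 7.74 with the negative control and 7.98, 7.96 and 7.92 with reagent alone. The miR-520f arrays lay above all control arrays by at least 0.18, and the log2 fold changes were 0.52 against the negative control (SE 0.09, limma adjusted p = 0.00134) and 0.38 against reagent alone (SE 0.09, limma adjusted p = 0.00878). Both MAP3K7 calls were present under each of the 17 alternative settings. TAB2, the adaptor that carries MAP3K7 to ubiquitin chains, measured 7.91, 7.86 and 8.15 with miR-520f, 7.87, 7.66 and 7.70 with the negative control and 7.69, 7.68 and 7.75 with reagent alone. TAB2 overlapped with the negative control and was not called, with log2 differences of 0.23 (95% interval 0.03 to 0.43, limma adjusted p = 0.0867) and 0.26 (0.06 to 0.46, limma adjusted p = 0.0538). Without replicate 1 of the negative control TAB2 passed in both comparisons (adjusted p = 0.0330 and 0.0302), and without replicate 2 of miR-520f it passed against reagent alone (adjusted p = 0.0437). Against reagent alone TAB2 also passed with median centring and in a fit of the 2 groups alone (adjusted p = 0.0255 and 0.0431).

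**Figure D2:**
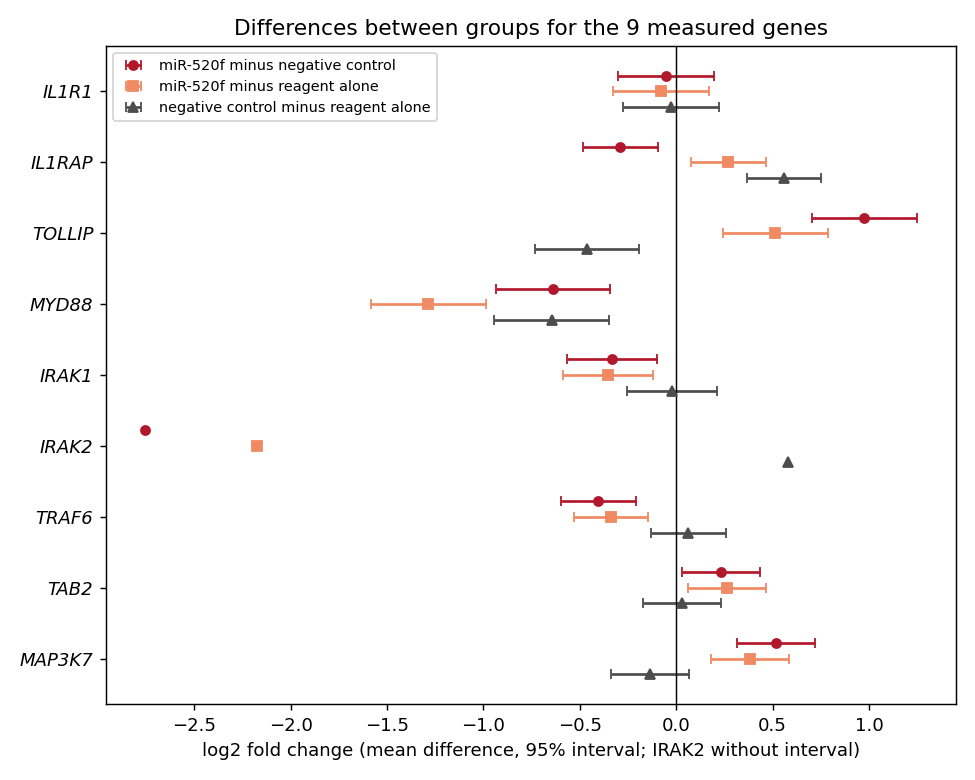
Log2 fold changes of the 9 measured genes, in the order receptor to kinase, with 95% intervals from limma for all but IRAK2, which was chosen by these values, for miR-520f minus negative control (circles), miR-520f minus reagent alone (squares) and negative control minus reagent alone (triangles). In the miR-520f comparisons (circles and squares), IRAK2 lies at -2.76 and -2.18. There MYD88, IRAK1 and TRAF6 lie between -1.28 and -0.33, and TOLLIP and MAP3K7 lie between 0.38 and 0.98.

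The negative control mimic was compared with reagent alone to see how far these genes differ between the controls. With 1 control sequence, an effect of any mimic and an effect of that sequence cannot be told apart. Of the 8 genes other than IRAK2, 3 were called, 2 of them lower and 1 higher with the negative control, where 15.3% of all genes were called in either direction. The negative control arrays lay apart from the reagent-alone arrays for 4 of the 8, and for 27.0% of all genes. MYD88 and TOLLIP (-0.46, SE 0.12, limma adjusted p = 0.0272) were the lower ones. IL1RAP was higher by 0.56 (SE 0.09, limma adjusted p = 0.00155). The TOLLIP call was lost without replicate 1 of the negative control or replicate 1 or 2 of reagent alone (adjusted p = 0.0647, 0.0975 and 0.0629). It was also lost with median centring, in the unmoderated model and in a fit of the 2 groups alone (adjusted p = 0.0590, 0.119 and 0.0623). Its log2 fold change stayed between -0.58 and -0.33 over the 17 alternatives, several of which cannot change it. Relative to reagent alone, TOLLIP thus stood lower with the negative control, by a call that depended on the setting, and higher with miR-520f. MYD88 was below reagent alone with both mimics.

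The rest of the pathway was read from lists of ligands, receptors, adaptors and ubiquitin enzymes, kinases, inhibitors and output genes, 124 genes of which 99 were measured. Against the negative control, 16 of the 99 were lower and 8 higher with miR-520f, where 12.6% and 15.4% of all genes were. Against reagent alone 23 were lower and 12 higher, where 13.1% and 14.5% of all genes were. Against both controls 11 fell and 6 rose, beside 8.61% and 9.37% of all genes. Their median log2 fold change was -0.08 in each comparison, beside -0.03 for all genes.

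**Figure D3:**
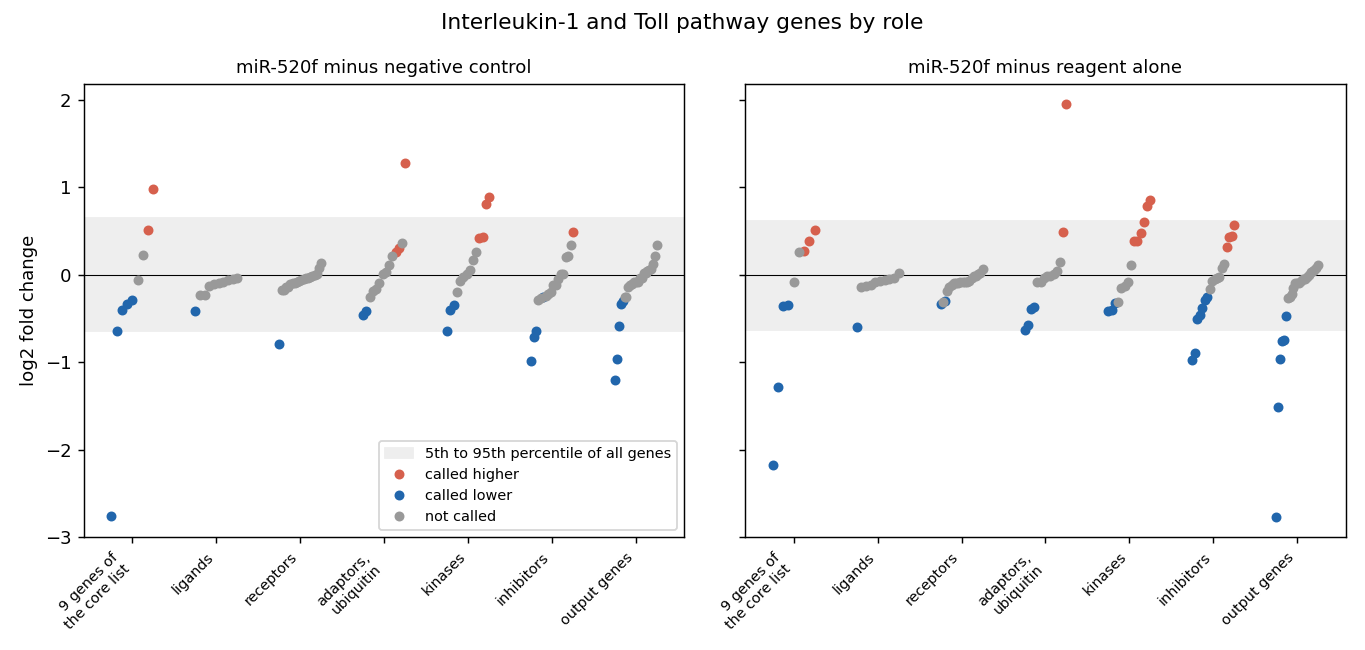
Log2 fold change of each measured pathway gene by role, sorted within its group, for miR-520f minus negative control (left) and minus reagent alone (right). Colours mark calls at a limma adjusted p under 0.05 and the grey band holds the 5th to 95th percentile of all genes. Most ligands and receptors lie close to 0, with TLR6 at -0.79 on the left and IL18 at -0.59 on the right, and kinases and inhibitors spread to both sides.

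Ligands and receptors showed few differences and mostly dim values. Of 10 measured ligands 1 fell and 0 rose against both controls by limma (8.61% and 9.37% of all genes), and the 1 was IL18, which signals through its own MYD88-coupled receptor (log2 fold changes -0.42 and -0.59 against the negative control and reagent alone, in that order here and below). The interleukin-1 genes IL1A and IL1B did not pass, and their log2 fold changes were -0.06 and -0.08 for IL1A and -0.08 and -0.13 for IL1B. All ligand group means lay between 2.67 and 3.71 with miR-520f, between 2.72 and 4.13 with the negative control and between 2.66 and 4.30 with reagent alone. Of 20 receptors and co-receptors, 0 were called against both controls by limma, beside 8.61% of all genes lower and 9.37% higher. In the separate comparisons 1 was lower than with the negative control (12.6% of all genes) and 2 were lower than with reagent alone (13.1%). At an unadjusted p under 0.05 limma placed 2 of the 20 below both controls, and the unmoderated model with adjustment placed 1. TLR6, which pairs with TLR2, ranked first among the receptors by the smaller of its log2 fold changes (-0.79, limma adjusted p = 0.000430, and -0.31, limma adjusted p = 0.0764). With the replicate number as a block TLR6 passed against reagent alone too (adjusted p = 0.0364), which makes 1 receptor lower than both controls. TLR6 also stood higher with the negative control than with reagent alone, by 0.47 (limma adjusted p = 0.0195). That call was lost under 5 of the 17 alternatives. UNC93B1, which carries nucleic acid-sensing Toll receptors to endosomes, followed (-0.17, limma adjusted p = 0.0821, and -0.30, limma adjusted p = 0.00584). UNC93B1 passed against the negative control as well after a further quantile normalization, in the unmoderated model and without replicate 3 of miR-520f (adjusted p = 0.0261, 0.0331 and 0.0452).

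Among 14 adaptors and ubiquitin enzymes, 2 fell and 1 rose against both controls (8.61% and 9.37% of all genes). TICAM1, the adaptor of TLR3 and of the MYD88-independent arm of TLR4, fell (-0.46 and -0.58, limma adjusted p = 0.00235 and 0.000574). IRAK3, a family member without kinase activity that restrains the pathway, fell (-0.42 and -0.63, limma adjusted p = 0.0330 and 0.00382). The IRAK3 call against the negative control was lost without any single miR-520f replicate or without replicate 2 or 3 of the negative control, with adjusted p from 0.0585 to 0.110. ZNF675, a zinc finger protein described as an inhibitor of TRAF6 signalling, rose by 1.28 and 1.95 (SE 0.31 each, limma adjusted p = 0.00834 and 0.000633).

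Of 14 kinases and kinase partners below TRAF6, 2 fell and 4 rose against both controls (8.61% and 9.37% of all genes). MAP2K6, which activates p38, rose from the dim end of the scale, at 3.86 ± 0.10 with miR-520f, against 2.96 ± 0.06 with the negative control and 3.0 ± 0.01 with reagent alone (SD, n = 3 each). MAPK9, the stress kinase JNK2, rose by 0.81 and 0.60, and MAP3K3 rose by 0.43 and 0.78. MAP3K3 also stood higher with the negative control than with reagent alone, by 0.35 (limma adjusted p = 0.0195). That call was lost under 4 of the 17 alternatives. TAB1, the activating partner of MAP3K7, rose by 0.42 and 0.38 (limma adjusted p = 0.000889 and 0.00177) and was named after its values were seen. CHUK, the IkappaB kinase alpha, fell (-0.64 and -0.40, limma adjusted p = 0.00194 and 0.0266), and so did MAP2K3, the other activator of p38 (-0.40 and -0.32), also named after its values were seen. The CHUK call against reagent alone was lost without any single miR-520f replicate or without replicate 1 or 3 of reagent alone, with adjusted p from 0.0571 to 0.0935.

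Of 18 inhibitors of the pathway, 3 fell and 1 rose against both controls (8.61% and 9.37% of all genes). DUSP1, a phosphatase that switches off p38 and JNK, fell (-0.99 and -0.89, limma adjusted p = 0.000418 and 0.000882), as did the deubiquitinase USP4 (-0.71 and -0.50) and TNIP1, a ubiquitin-binding partner of the deubiquitinase TNFAIP3 (-0.64 and -0.29). TNIP1 also stood higher with the negative control than with reagent alone, by 0.35 (limma adjusted p = 0.00616). N4BP1, a restrainer of NF-kappaB activity, rose by 0.49 and 0.57.

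Of 23 measured genes that interleukin-1 and Toll signalling are known to induce, 3 fell and 0 rose against both controls by limma (5 and 0 at an unadjusted p under 0.05, 2 and 0 in the unmoderated model with adjustment), beside 8.61% and 9.37% of all genes. LIF, a cytokine of the interleukin-6 family, fell to 4.90 ± 0.18 with miR-520f, against 6.10 ± 0.20 with the negative control and 6.41 ± 0.23 with reagent alone (SD, n = 3 each; log2 fold changes -1.20 and -1.52, limma adjusted p = 6.85e-05 and 1.39e-05). IER3, an early response gene of NF-kappaB, fell by almost equal amounts (-0.96 and -0.96), and the transcription factor IRF1 fell (-0.58 and -0.74). CXCL8 and IL6 lay near the dim end in all groups and did not pass, and their log2 fold changes were -0.09 and -0.03 for CXCL8 and 0.03 and -0.09 for IL6. Other induced genes were lower with both mimics than with reagent alone and did not separate miR-520f from the negative control. These were CCL2, TNFAIP2 and ICAM1, named after their values were seen. CCL2 was lower with the negative control than with reagent alone by a log2 fold change of -3.11, TNFAIP2 by -0.82 and ICAM1 by -0.52 (limma adjusted p = 3.50e-05, 4.77e-05 and 0.0268).

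Genes whose profile over the 9 arrays was most like that of IRAK2 were found by the root mean square difference between log2 values after each gene's mean was subtracted. The closest 5 were ABLIM3, EPDR1, APPL2, IL6ST and TMEM14A, at differences of 0.208, 0.226, 0.258, 0.261 and 0.291 from IRAK2, with Pearson r of 0.973 to 0.999 over 9 arrays that fall into 3 groups. ABLIM3, an actin-binding LIM protein, measured 5.56, 5.64 and 5.53 with miR-520f, against 8.0, 7.85 and 7.71 with the negative control and 7.60, 7.37 and 7.24 with reagent alone. It showed the same order of groups as IRAK2 and, within each control group, the same order of arrays. APPL2, an endosomal adaptor, measured 4.62, 4.67 and 4.60 with miR-520f, against 6.84, 6.88 and 7.03 with the negative control and 6.50, 6.45 and 6.28 with reagent alone. Like IRAK2, both genes stood higher with the negative control than with reagent alone, ABLIM3 by 0.45 and APPL2 by 0.51. IL6ST, the shared signalling receptor of interleukin-6 cytokines, differed by 0.21 between the controls, EPDR1 by 0.20 and TMEM14A by 0.05. These genes were chosen for their likeness, and their values are a description.

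**Figure D4:**
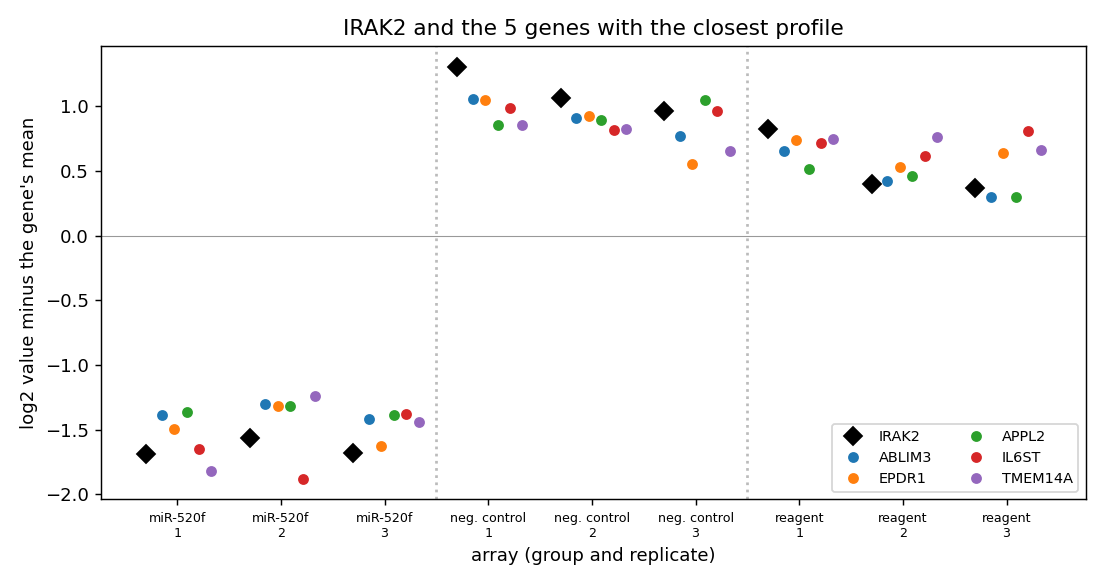
Log2 values minus each gene's mean over 9 arrays for IRAK2 (black diamonds) and the 5 genes of closest profile (coloured points), with the 3 miR-520f arrays on the left, the negative control arrays in the middle and the reagent-alone arrays on the right. All 6 genes lie below their mean on the miR-520f arrays and above it on the 6 control arrays.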

How the data were processed

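The deposited log2 table holds 22011 probe sets and a column for each of the 9 arrays. Per the submitters' processing notes it was made with RMA and Partek 6.6, and the build hg18 is named. Other settings and any filter were not given in the sources used here. RMA had already corrected background and equalised the arrays, and scanner files were not used. Through the platform annotation 14432 probe sets had a single gene symbol, 2408 had several and 5171 were unnamed here. Entrez identifiers matched 14404 of the single ones to a gene table of GRCh38.p14, with 0 symbols changed. The brightest probe set per gene gave 14232 genes.

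Groups came from the sample titles. Limma 3.58.1 in R 4.3.3 was fitted to all genes with 1 mean per group over 9 arrays and 6 residual degrees of freedom, and tested on simulated data. Adjusted p-values are Benjamini-Hochberg over all genes and measure only the spread between these arrays, since the labels do not say how cultures were separated. The series text names ANOVA contrasts in Partek, and an unmoderated model was an alternative. Other alternatives were further normalization, median centring, a filter on dim genes, averaged probe sets, a variance trend, pairwise fits, a replicate block and leaving out each array. The genes and lists were chosen with earlier results of these data known. Named genes were all members, up to 4 genes per list called in both comparisons with the largest smaller change, the 2 largest where none was called, and the 5 of closest profile to IRAK2. Marker lists covered the line and immune, fibroblast and endothelial cells. In the fibroblast list (5 genes) and the endothelial list (5 genes), 0 were called with miR-520f against either control by limma or the unmoderated model (at an unadjusted p under 0.05, 1 fibroblast gene against reagent alone). Of all genes, limma called 12.6% lower and 15.4% higher than with the negative control, and 13.1% and 14.5% than with reagent alone.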

Additional observations from a re-analysis of the deposited data

How the results depend on the processing

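The signs of all called log2 fold changes of the 9 measured genes and of the other genes named by rule held under the 17 alternatives. Several alternatives could not move a log2 fold change, so signs and ranges were tested only by the rest. These were the dim filter, the unmoderated model, the variance trend, pairwise fits, the replicate block and leaving out an array of the group not compared. For the 9 measured genes, with 1 probe set each, averaging probe sets could not move it either. The signs of the line markers and of genes named after their values were seen were not followed. Over the 9 genes, 3 comparisons and 17 alternatives, 417 results stayed on their side of the threshold, 37 lost a call and 5 gained one, all 5 for TAB2. These counts include IRAK2, with 17, 17 and 16 of the 417 and 1 of the 37. IRAK2 was chosen by its low values, so its part of the counts is no support for it. The log2 fold change of IRAK2 ranged from -2.83 to -2.66 against the negative control and from -2.26 to -2.03 against reagent alone. Of the 8 genes other than IRAK2, 3 were lower than both controls (8.61% of all genes), with a range of 1 to 3 when single arrays were left out, and 1 was lower without replicate 1 of miR-520f and without replicate 2 of reagent alone. The number higher than both was 2 (9.37% of all genes), with a range of 2 to 3, and 1 in the unmoderated model. Leaving out single arrays gave 3197 to 4037 called genes for miR-520f against the negative control (3996 with all arrays), 3153 to 4491 against reagent alone (3927) and 1394 to 2181 for the negative control against reagent alone (2174, and 1287 in the unmoderated model). The low value of 1394 came without replicate 2 of reagent alone. In that comparison the MYD88 and TOLLIP calls were lost in the unmoderated model (adjusted p = 0.0661 and 0.119). For miR-520f the unmoderated model also ended the calls of IRAK1 and IL1RAP in both comparisons. It ended those of IRAK3, IRF1, N4BP1 and ZNF675 against the negative control and of CHUK and TOLLIP against reagent alone. Median centring ended both calls of IRAK1, that of IRAK3 against the negative control, that of CHUK against reagent alone and that of TOLLIP between the controls. A further quantile normalization ended that of IL1RAP against the negative control, as did a fit of the 2 groups alone. The fit of the 2 groups alone also ended that of IRAK3 against the negative control and that of TOLLIP between the controls. With the replicate number as a block, 4159, 4060 and 2297 genes were called and no call of the 9 genes changed, while TLR6 against reagent alone and ZNF675 between the controls gained a call (adjusted p = 0.0364 and 0.00277). Correlations of deviations between arrays of different groups were above 0.1 for 4 of 9 same-numbered pairs (range -0.03 to 0.20). For pairs with different numbers they were above 0.1 for 3 of 18 (range -0.44 to 0.33). These ranges do not settle whether arrays pair by number, and the main fit used no pairing. No probe-level background was used, so differences at dim values are bounded only by this scale.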
